A study of Rattus norvegicus with 6 samples.

Results

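The genes described here encode the proteins of the cytosolic ribosome. They were chosen by gene name alone, as every row whose symbol begins with Rpl or Rps and a digit, together with Rpsa, Rplp0, Rplp1 and Rplp2, leaving out the S6 kinase genes and names marked as pseudogenes. This gave 95 of the 28358 genes in the tables. Of these, 75 are core genes of the ribosome, 46 of the large and 29 of the small subunit, 19 are copies or paralogs of core genes, and 1, Rps19bp1, encodes a protein that binds a ribosomal protein and is no part of the ribosome. No measured value entered the choice, but the group was picked out with results of the same comparison in view, so its counts are a description and support nothing beyond themselves.

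The tissue is neuroretina, taken for RNA sequencing from male GK (Goto-Kakizaki) rats aged 14 months, a strain with spontaneous type 2 diabetes; all samples are from this strain, so none is non-diabetic. Each eye had received 5 µL of PLGA (degradable polymer) microspheres in the vitreous, and retinas were taken after 2 months. The microspheres were empty in the 3 non-loaded samples and held 6.2 µg of spironolactone, a blocker of the mineralocorticoid receptor, in the other 3. Whether the samples come from separate animals is not given in the labels, so p-values measure only how far these samples spread, and that spread may be technical.

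The cytosolic ribosome builds all proteins encoded in the nucleus. Its small subunit, made of Rps proteins and an RNA, decodes the mRNA, and its large subunit, made of Rpl proteins and further RNAs, joins the amino acids, with the stalk proteins Rplp0, Rplp1 and Rplp2 recruiting translation factors. The mRNAs for these proteins are short and abundant, and most begin with a tract of C and T letters, the 5′ terminal oligopyrimidine (TOP) motif, through which mTORC1 and the RNA-binding protein Larp1 control their translation and stability.

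The starts of 8 of these genes are shown because they carry or lack this tract: the 2 genes that passed the test below (Rps14, Rpl9), an abundant large-subunit gene (Rpl3), a stalk gene (Rplp0), and 2 core genes each beside its paralog (Rpl22 and Rpl22l1, Rps27 and Rps27l). Each line gives 10 bases before and 20 bases after the annotated start, on the gene's strand, from RefSeq (GRCr8 assembly), and the capitals mark the unbroken run of C and T letters that begins at the first transcribed base.
Rps14: ccgtctctctCTTTCCggtggaggagtctg
Rpl9: aggacgttctCTCTTTgccccatctactgc
Rpl3: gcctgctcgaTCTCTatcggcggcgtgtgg
Rplp0: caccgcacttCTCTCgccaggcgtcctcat
Rpl22: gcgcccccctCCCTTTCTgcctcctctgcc
Rpl22l1: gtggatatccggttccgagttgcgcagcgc
Rps27: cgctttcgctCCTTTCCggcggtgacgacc
Rps27l: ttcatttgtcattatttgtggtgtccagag
The windows are chr18:56498250-56498279 (plus strand) for Rps14, chr14:43247580-43247609 (plus) for Rpl9, chr7:113507971-113508000 (minus) for Rpl3 and chr12:46718371-46718400 (minus) for Rplp0. Those of the pairs are chr5:168117951-168117980 (plus) for Rpl22, chr2:113683186-113683215 (plus) for Rpl22l1, chr2:177964587-177964616 (minus) for Rps27 and chr8:76443648-76443677 (plus) for Rps27l. Rps14, Rpl9, Rplp0, Rpl22 and Rps27 begin with C inside such a run, Rpl3 begins with T, and the paralogs Rpl22l1 and Rps27l begin with G and A.

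A window was matched by symbol for 71 of the 95 genes. A start with C followed by at least 4 letters that are each C or T, searched on the gene's strand only, was found in 23 of these 71 (32.4%), against 3.11% of all 27457 genes with a window. All 23 belong to the 60 core genes (38.3%), and none of the 10 copies and paralogs has one. Annotated starts can be a few bases off: any run of at least 6 C or T letters within 20 bases of the start was found in 80.3% of the 71 genes and in 38.9% of all genes. A match describes these letters and shows no regulation.

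Libraries held 9996198 to 12589466 expected counts, and 13242 genes passed the filter on low counts. Retinal markers were present in every library, with the rod transducin gene Gnat1 at 4958 to 10238 TPM (transcript abundance corrected for length and scaled to the same total in each library) and the Müller glia gene Glul at 2691 to 2917 TPM. One library stood apart in the results that follow: spironolactone replicate 1 lay with the non-loaded libraries in the median and the sum of the ribosomal protein genes, while spironolactone replicates 2 and 3 lay below them.

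Most core genes were abundant. Over the 6 libraries 66 of the 75 core genes averaged more than 100 TPM, and the 69 that were tested had a median of 449 TPM. The small-subunit gene Rps29 was highest at 1550 ± 146 TPM (SD, n = 6), followed by Rpl21 of the large subunit (1057 ± 50.1 TPM) and Rps27 of the small subunit (1006 ± 73.1 TPM). Next came Rpl41, which encodes a very short basic protein of the large subunit (963 ± 80.1 TPM), and Rpl19 (904 ± 18.5 TPM). After Rps29, each gene's mean ± SD range overlapped that of the next gene in this order.

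A few core genes were far lower than the rest or listed at 0. The core genes Rplp2, Rpl7a, Rpl35a, Rpl38, Rps6 and Rps19 were listed at 0 in all 6 libraries, although every growing cell needs their products. A value of 0 here can be a failed assignment of reads to near-identical copies, so nothing was read from these genes. Rpl8 (15.3 ± 3.35 TPM) and Rps9 (34.7 ± 5.74 TPM) were the lowest tested core genes, and both were named after their values were seen. Besides the 6 core genes, 7 copies were at 0, and 6 further copies had at most 9 counts in any library and did not pass the filter. That left 76 tested members: 69 core genes, 6 copies and paralogs, and Rps19bp1. Members with many near-identical copies in the genome remain less certain. Fractional counts, which show reads shared between genes, (more than 0.001 from a whole number) were present for 2 members only (Rpl13a and Rpl19, in spironolactone replicate 1). Such counts were rare among all genes too, at 0.437% to 0.469% of genes per library. Their absence for the other members therefore tells little about reads shared with copies.

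The amount of ribosomal protein mRNA was slightly lower in 2 of the 3 spironolactone libraries. Summed over the 95 genes, the non-loaded libraries held 34478, 35177 and 35042 TPM and the spironolactone libraries 35663, 31901 and 31615 TPM. Spironolactone replicate 1 was the highest of all 6 and replicates 2 and 3 the lowest, so the groups overlap. The group means were 34899 ± 371 and 33059 ± 2259 TPM (SD, n = 3 each), a difference of −5.27% that is smaller than the spread of the spironolactone group. Without spironolactone replicate 1 the difference was −9.0%, and without replicate 3 it was −3.20%. In bulk tissue, fewer cells that make these mRNAs and less of them per cell cannot be told apart. Large-subunit genes summed to 19644 ± 282 and 18933 ± 960 TPM (−3.62%), and small-subunit genes to 14682 ± 119 and 13579 ± 1251 TPM (−7.51%).

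**Figure D1:**
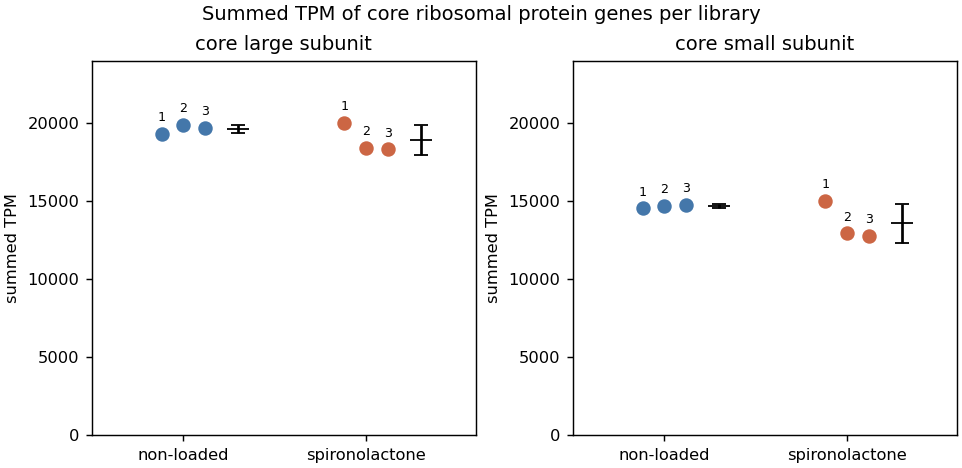
Summed TPM (vertical axis, from 0) of the 46 core large-subunit genes (left) and the 29 core small-subunit genes (right) in each library, with the replicate number above each point and the group mean ± SD as a bar. In both panels spironolactone replicate 1 is the highest library and replicates 2 and 3 are the lowest.

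Gene by gene, 2 of the 76 tested members were lower with spironolactone and 0 were higher at an adjusted p of 0.05 (edgeR quasi-likelihood test, Benjamini-Hochberg over all 13242 tested genes). Over all tested genes 0.763% were called lower and 1.87% higher (2.63% in either direction), and a count of 2 describes these 2 genes. At an unadjusted p below 0.05 (edgeR), 20 members were lower and 1 was higher, against 6.32% and 9.52% of all tested genes. The median standard error was 0.066 for the members and 0.102 over all tested genes, so smaller shifts reach this threshold among the members. DESeq2, at an adjusted p of 0.05, called 2 members lower and 0 higher. The direction was shared more widely than the calls. The log2 fold change was below 0 for 62 of the 76 tested members, against 50.7% of all tested genes, and its median was −0.09, against −0.0027 over all. The groups did not overlap, with spironolactone lower, for 17 members, against 9.48% of all tested genes, and with spironolactone higher for 1, against 11.4%. These genes vary together between libraries, so the 76 are not independent observations.

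Rps14, a protein on the platform of the small subunit, measured 100.5, 96.9 and 103.4 CPM (counts scaled to library size) in the non-loaded libraries and 90.0, 72.1 and 64.9 CPM with spironolactone. All 3 spironolactone libraries lay below all non-loaded ones, with replicate 1 nearest to them. It fell from 100.2 ± 3.23 to 75.6 ± 12.9 CPM (SD, n = 3), a log2 fold change of −0.41 ± 0.09 (SE; edgeR, adjusted p = 0.021). Without spironolactone replicate 1 the value was −0.55 (adjusted p = 0.000162). Dropping that library also raised the number called lower over all tested genes, from 101 to 200. The Rps14 call was lost without non-loaded replicate 1 (adjusted p = 0.0871) or 3 (0.069), without spironolactone replicate 2 (0.155) or 3 (0.0952), and on log2(TPM + 1) with limma (0.157).

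Rpl9, a protein of the large subunit near its stalk base, measured 141.8, 129.8 and 143.2 CPM without the drug and 127.3, 99.2 and 89.1 CPM with it. The same order of libraries was seen as for Rps14, and the groups again did not overlap. It fell from 138.3 ± 7.4 to 105.2 ± 19.8 CPM, a log2 fold change of −0.40 ± 0.09 (SE; edgeR, adjusted p = 0.0351). Without spironolactone replicate 1 it was −0.55 (adjusted p = 0.00014). Leaving out any one of the other 5 libraries ended the call: the adjusted p was lowest, 0.0513, when non-loaded replicate 2 was dropped and highest, 0.214, when replicate 2 of the spironolactone group was. The call was also lost with robust shrinkage (0.16), with effective lengths as an offset (0.0544) and on log2(TPM + 1) (0.223).

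**Figure D2:**
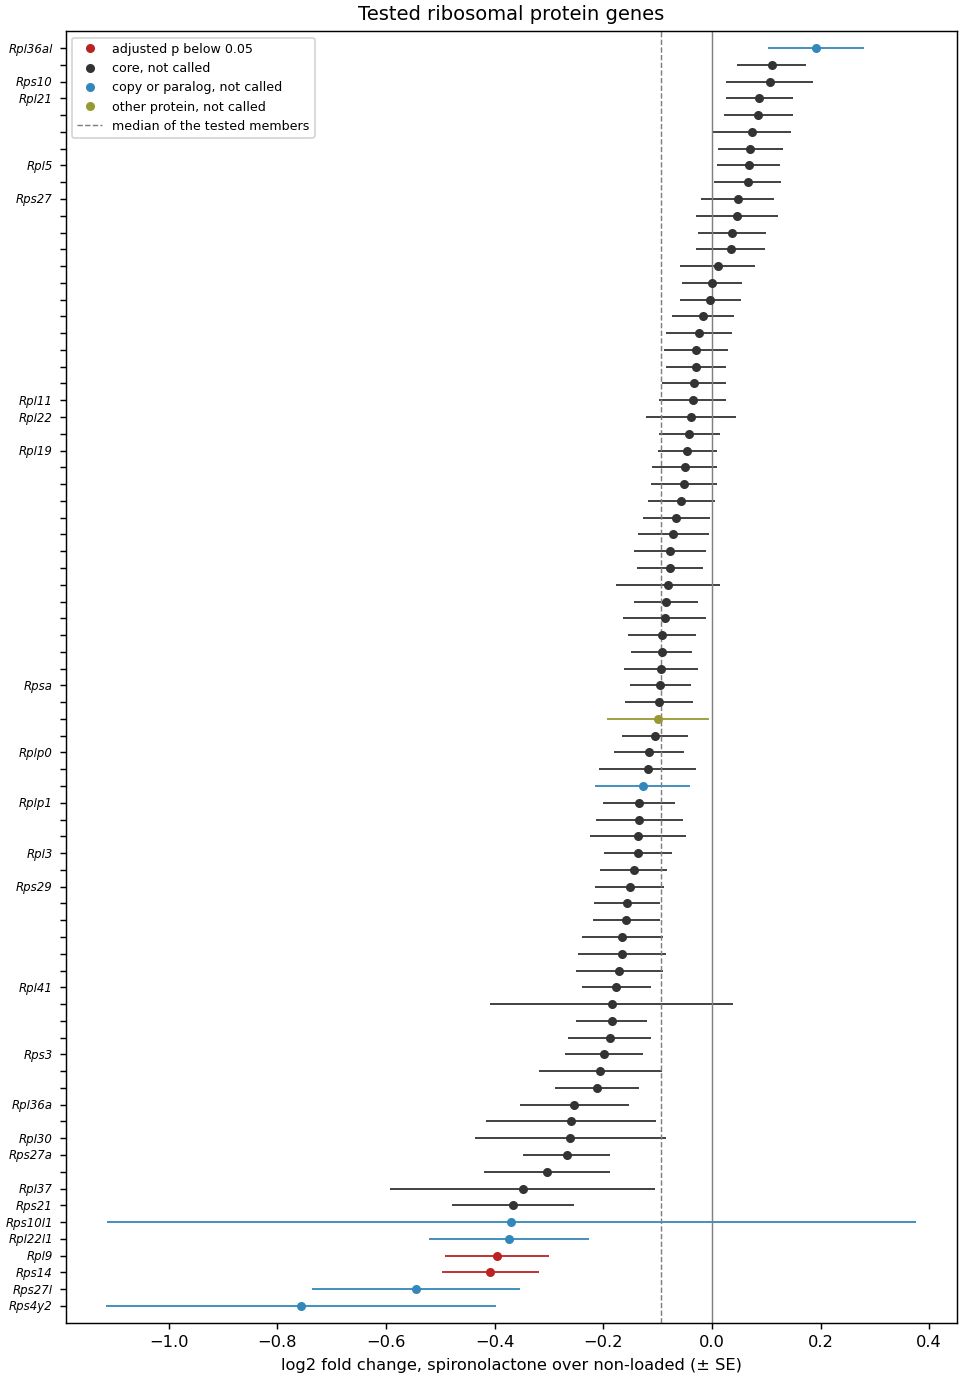
Log2 fold change (horizontal axis, spironolactone over non-loaded) with its standard error for each of the 76 tested members, sorted, with names for selected genes. Most points lie left of 0, Rps14 and Rpl9 (red) are the only members called, and the 5 lowest points include the paralogs Rps4y2, Rps27l and Rpl22l1.

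The core genes were also counted by subunit. Of 27 tested core small-subunit genes, 23 were below 0 with a median log2 fold change of −0.15, and 12 had an unadjusted p below 0.05. For the 42 core large-subunit genes the numbers were 33, −0.07 and 6. Over all tested genes 50.7% were below 0, and 6.32% were lower at an unadjusted p below 0.05. The small-subunit genes were also shorter, with a median effective length of 383 against 473 bases. The difference between the subunits was not tested. Rps27a, which encodes ubiquitin fused to a small-subunit protein, measured 113.4, 113.0 and 94.0 CPM and then 96.7, 88.9 and 80.4 CPM (log2 fold change −0.27 ± 0.08, adjusted p = 0.0968), with spironolactone replicate 1 inside the non-loaded range. It passed without spironolactone replicate 1 (adjusted p = 0.0291), without non-loaded replicate 3 (0.0265), and with no filter on low counts (0.0192). Rps21, named after its value was seen, measured 35.4, 32.8 and 32.5 CPM and then 31.5, 23.0 and 23.7 CPM (−0.37 ± 0.11, adjusted p = 0.102). Its groups did not overlap. Rps3, a small-subunit protein at the mRNA entry that also takes part in DNA repair, measured 195.1, 186.0 and 199.1 CPM and then 189.3, 164.8 and 151.4 CPM (−0.20 ± 0.07, adjusted p = 0.172). Both Rps21 (adjusted p = 0.00627) and Rps3 (0.0159) passed without spironolactone replicate 1, and Rps21 also with no filter on low counts (0.0307).

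**Figure D3:**
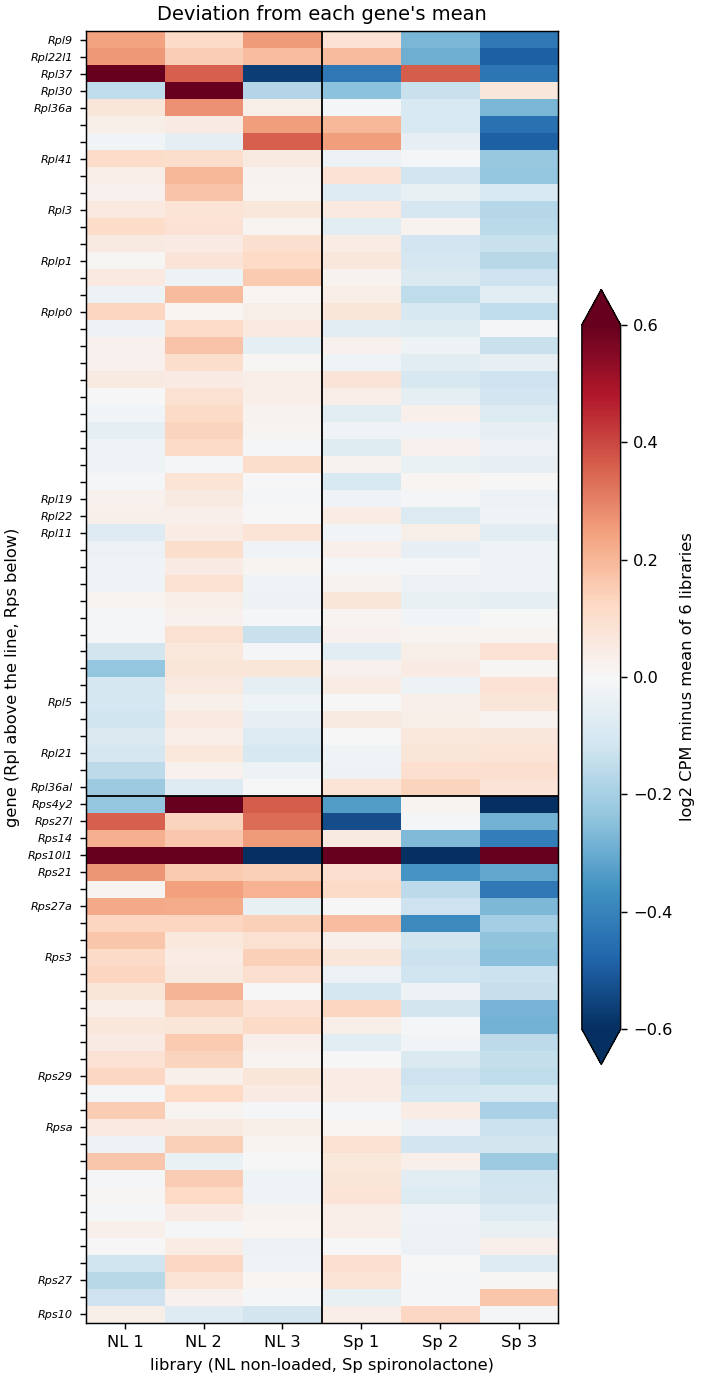
Each row is a tested member (selected rows named) and each column a library; colour gives log2 CPM minus the gene's mean over the 6 libraries, with large-subunit names above the horizontal line and small-subunit names below it. Blue gathers in spironolactone replicates 2 and 3, where 19 and 17 of the 76 members lie above their own mean, against 47 in replicate 1 and 42, 69 and 48 in the non-loaded libraries.

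Counted by library, spironolactone replicate 3 was the lowest of the 6 for 42 of the 76 members, replicate 2 for 11 and replicate 1 for 4, and a non-loaded library was the lowest for 19. The median deviation of the members from their own means was 0.02, 0.08 and 0.02 on the log2 scale in the non-loaded libraries. It was 0.03, −0.04 and −0.11 in the spironolactone libraries. Non-loaded replicate 2 stood highest and spironolactone replicate 3 lowest.

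None of the most abundant members described here passed the test. Rps29 measured 131.5 ± 4.23 and 118.4 ± 8.83 CPM (−0.15 ± 0.06, adjusted p = 0.255), and its groups overlapped. Rpl41 measured 159.1 ± 3.37 and 140.8 ± 11.5 CPM (−0.18 ± 0.06, adjusted p = 0.179) without overlap. Rps27 measured 99.4 ± 8.68 and 102.9 ± 3.65 CPM (0.05 ± 0.07, adjusted p = 0.797) and Rpl19 274.4 ± 5.95 and 265.9 ± 2.49 CPM (−0.05 ± 0.05, adjusted p = 0.744). Among the largest values above 0 were Rps10, at 42.5 ± 2.29 and 45.7 ± 2.15 CPM (0.11 ± 0.08, adjusted p = 0.572) and Rpl21, at 182.3 ± 11.8 and 193.6 ± 7.90 CPM (0.09 ± 0.06, adjusted p = 0.54). Rpl3, a protein near the site where peptide bonds form, measured 459.9, 467.7 and 461.8 CPM and then 459.9, 411.7 and 392.3 CPM (−0.14 ± 0.06, adjusted p = 0.293), and Rpl24, at the bridge between the subunits, 134.5 ± 10.97 and 126.0 ± 7.07 CPM (−0.09 ± 0.07, adjusted p = 0.546).

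Stalk genes and members with roles outside the ribosome did not pass either, and the stalk gene Rplp2 was listed at 0. Rplp0, the stalk base protein often used as a reference gene, measured 359.7, 331.5 and 337.4 CPM and then 346.0, 307.6 and 295.4 CPM (−0.12 ± 0.06, adjusted p = 0.414), with spironolactone replicate 1 inside the non-loaded range. Rplp1 measured 135.1 ± 5.33 and 123.2 ± 10.5 CPM (−0.13 ± 0.07, adjusted p = 0.344). Rpl5 and Rpl11, which as free proteins bind Mdm2 and so stabilise p53, stood on either side of 0. Rpl5 measured 245.2 ± 11.7 and 257.0 ± 7.10 CPM (0.07 ± 0.06, adjusted p = 0.629), and Rpl11 104.6 ± 5.86 and 102.1 ± 3.68 CPM (−0.04 ± 0.06, adjusted p = 0.84). Rpsa, also known as the laminin receptor precursor, measured 283.1, 281.8 and 278.4 CPM and then 274.4, 266.3 and 248.8 CPM (−0.09 ± 0.06, adjusted p = 0.452), without overlap. Of the ribosomal protein genes that the naming rule leaves out, the small-subunit scaffold gene Rack1 measured −0.03 ± 0.06 (adjusted p = 0.888), and Fau was listed at 0.

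No paralog passed the test, and differences between paralogs and their core partners were not tested. Rpl22l1, the paralog whose protein can replace Rpl22 in the large subunit, measured 20.3, 18.8 and 19.3 CPM and then 19.4, 13.8 and 12.01 CPM (−0.37 ± 0.15, adjusted p = 0.218). Rpl22 itself measured 36.3, 36.3 and 35.4 CPM and then 36.7, 33.5 and 35.0 CPM (−0.04 ± 0.08, adjusted p = 0.883). On the per-length TPM scale Rpl22l1 made up 29.8%, 28.3% and 29.3% of the pair without the drug and 28.7%, 23.9% and 20.7% with it. Spironolactone replicates 2 and 3 lay below all others in this share, replicate 1 lay inside the non-loaded range, and without it Rpl22l1 passed (−0.59, adjusted p = 0.0168), while without replicate 3 its value was −0.24. Rpl22l1 is the member of the pair whose annotated start lacks the C and T run shown above. A relation between start and fold change was not tested.

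Rps27l, a paralog of Rps27 known as a p53 target, measured 8.30, 7.07 and 8.14 CPM and then 4.39, 6.38 and 5.24 CPM (−0.54 ± 0.19, adjusted p = 0.158). The groups did not overlap, and here spironolactone replicate 1 was the lowest library, as for 4 of the 76 members in all. This fold rests on the scale: it was −0.15 with effective lengths as an offset (adjusted p = 0.818) and −0.17 on log2(TPM + 1), and in TPM the groups overlapped, at 48.9 ± 9.51 and 43.9 ± 11.5 TPM. In TPM, Rps27l made up 4.73% ± 0.939 and 4.17% ± 1.31 of the pair with Rps27. The lowest fold change of the tested members belonged to Rps4y2, at 2.43 ± 0.943 and 1.44 ± 0.377 CPM (−0.76 ± 0.36, adjusted p = 0.317), with at most 39 counts in a library. Without non-loaded replicate 2 its value was −0.44, and Rps27l (−0.62) was then lower.

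Rpl36a and Rpl36al, near-identical large-subunit genes, stood on opposite sides of 0. Rpl36al measured 28.4, 31.4 and 33.2 CPM and then 35.1, 36.4 and 35.0 CPM (0.19 ± 0.09, adjusted p = 0.299), the highest value of the 76. Rpl36a measured 30.3, 34.8 and 29.4 CPM and then 28.6, 27.0 and 23.8 CPM (−0.25 ± 0.10, adjusted p = 0.22). In TPM, Rpl36al made up 60.1% ± 2.81 of the pair without and 67.2% ± 1.96 with spironolactone, and the libraries of the groups did not overlap in this share. How reads were divided between such close copies is uncertain. Rpl3l, Rpl10l and Rpl39l, paralogs known mainly from muscle and testis, had at most 9 counts in a library and were not tested.

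**Figure D4:**
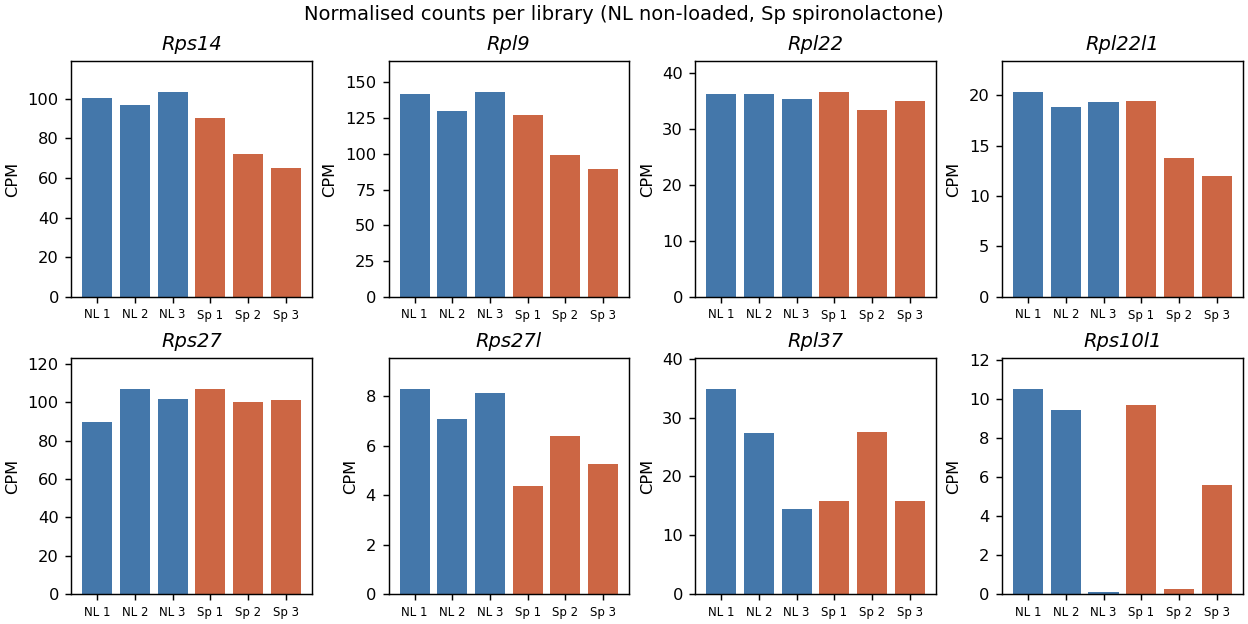
Bars (from 0) give CPM in each library for the 2 members called lower, for 2 core genes beside their paralogs, and for Rpl37 and Rps10l1. Rps14, Rpl9 and Rpl22l1 share the order of the spironolactone libraries, Rps27l does not, and Rpl37 and Rps10l1 split the libraries across both groups.

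A few members varied more between libraries of one group than between the groups; they were named after their values were seen. Rpl37, of the large subunit, measured 34.9, 27.5 and 14.4 CPM and then 15.9, 27.6 and 15.8 CPM (adjusted p = 0.53), so 3 libraries from both groups lay between 14.4 and 15.9 CPM and the other 3 between 27.5 and 34.9 CPM. Rps10l1, a copy of Rps10 that RefSeq lists as a pseudogene, had 104, 108 and 1 counts and then 104, 3 and 62 counts (adjusted p = 0.871). Rpl30 measured 18.7, 32.7 and 18.4 CPM and then 17.5, 19.0 and 21.9 CPM (adjusted p = 0.511), with only non-loaded replicate 2 apart. Rps10 itself, at 45.1, 41.7 and 40.8 CPM and then 45.3, 48.0 and 43.8 CPM, did not share the pattern of its copy.

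Other gene lists of ribosome supply and translation were counted in the same way, and no test compared them with the ribosomal protein genes. Of 73 tested ribosome biogenesis genes, 4 rose and 0 fell, against 1.87% and 0.763% of all tested genes. Their median log2 fold change was 0.09, with 50 genes above 0. The share below 0 was 31.5%, against 50.7% of all tested genes. Nop58, a core protein of the particles that methylate ribosomal RNA, rose from 73.5 ± 4.26 to 91.5 ± 5.29 CPM (0.32 ± 0.07, adjusted p = 0.0179). Nucleolin (Ncl), an abundant nucleolar protein, rose from 521 ± 30.0 to 637 ± 44.7 CPM (0.29 ± 0.06, adjusted p = 0.0213), and Utp14a, which acts in processing the small-subunit RNA, from 24.1 ± 0.498 to 31.5 ± 3.08 CPM (0.39 ± 0.10, adjusted p = 0.04). The other was Utp20, a further processing factor, named after its value was seen (0.35 ± 0.09, adjusted p = 0.0497). In the mTORC1 and TOP regulator list 1 of 24 rose, against 1.87% of all tested genes, and 0 fell (median 0.06). It was Larp1, which binds TOP mRNAs, at 96.5 ± 3.33 and 118.7 ± 3.50 CPM (0.30 ± 0.06, adjusted p = 0.01). Each of Nop58, Ncl, Utp14a and Larp1 lost its call on log2(TPM + 1) (adjusted p of 0.0583, 0.062, 0.123 and 0.0785) and without at least 3 single libraries (up to 0.0997, 0.133, 0.202 and 0.0645). Of 21 translation genes known for TOP mRNAs, such as elongation factor and poly(A)-binding protein genes, 0 passed in either direction (edgeR), with a median of −0.03. At an unadjusted p below 0.05, 3 were higher and 2 lower, against 9.52% and 6.32% of all tested genes. Of 71 mitochondrial ribosomal protein genes, 1 rose, Mrpl2 (0.38 ± 0.10, adjusted p = 0.0447), against 1.87% of all tested genes, and 0 fell (median −0.02). The Mrpl2 call was lost on log2(TPM + 1) (0.0965), with library totals (0.0543), upper quartile factors (0.051), limma-voom (0.0501) or effective lengths (0.0539), and with 5 of 6 libraries left out singly (up to 0.175).

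The nuclear respiratory chain genes, many of them short and abundant like ribosomal protein genes, lay lower in all 3 spironolactone libraries by summed TPM, at 17195, 15574 and 14818 TPM against 17672 to 17944 TPM without the drug. Of 68 tested genes 58 were below 0, against 50.7% of all tested genes, and the median was −0.15. Among the 68, 5 fell, against 0.763% of all tested genes, and 0 rose. The 5 were Atp5l (−0.35 ± 0.07, adjusted p = 0.00905), Ndufa4 (−0.42 ± 0.09, 0.0114), Cox8a (−0.28 ± 0.06, 0.0179), Cox6a1 and Ndufb2, the last 2 named after their values were seen. On log2(TPM + 1) the calls of Ndufa4 (adjusted p = 0.0911) and Cox8a (0.125) were lost, as they were without some single libraries (up to 0.0801 and 0.145). Their median deviation was 0.08, 0.10 and 0.05 in the non-loaded libraries and 0.01, −0.05 and −0.16 with spironolactone, the same order among spironolactone libraries as for the ribosomal protein genes.

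**Figure D5:**
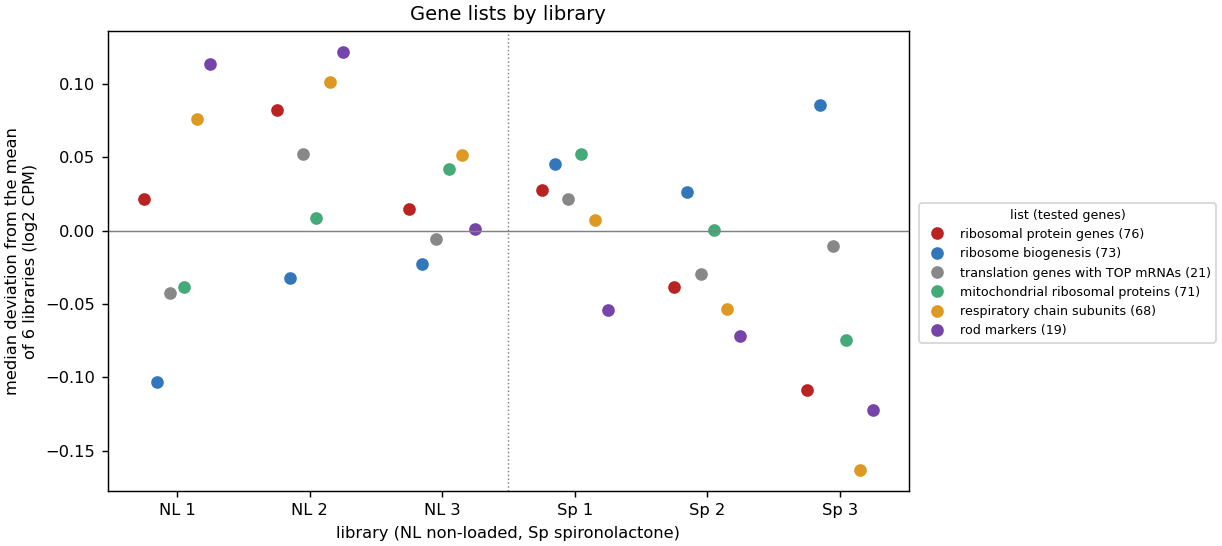
Median deviation of each list's tested genes from their mean over the 6 libraries (vertical axis, log2 CPM) by library. Ribosomal protein genes, mitochondrial ribosomal proteins, respiratory chain subunits and rod markers are lowest in spironolactone replicate 3, whereas ribosome biogenesis genes are highest there.

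Values by gene length and for markers of other cell types were set beside those of the ribosomal protein genes, with no test. Of the 76 members, 72 lie among the shortest 2649 of 5 equal classes of all tested genes by effective length, and that class had a median log2 fold change of −0.03, with 56.4% of its genes below 0, against 0.02 and 44.6% in the longest class. Members in the shortest class had a median of −0.10. In spironolactone replicate 3 the shortest class deviated by −0.05 and the longest by 0.05. Split at their own median effective length (426 bases), the shorter members had a median of −0.13 (30 of 38 below 0) and the longer ones −0.08 (32 of 38). A window was found for 54 of the 69 tested core genes. Those with the C start counted above had a median of −0.10 (18 of 22 below 0). The others, which include Rpl3 with its run that begins with T, had −0.08 (26 of 32). Rod markers, none of them at 0, had 8 of 19 genes called lower, against 0.763% of all tested genes. They summed to 85579 to 99020 TPM without spironolactone, and to 76679, 77162 and 70447 TPM in spironolactone replicates 1, 2 and 3. Spironolactone replicate 1 thus lay below the non-loaded range for rods, while its ribosomal protein sum was the highest of all libraries. Pigment epithelium markers, which can adhere to a dissected retina, had 0 of 12 tested genes called and summed to 289 to 323 TPM without and 150 to 305 TPM with spironolactone, with spironolactone replicate 3 lowest. Of these 12, 10 were below 0, against 50.7% of all tested genes, with a median of −0.41. At an unadjusted p below 0.05 (edgeR), 4 were lower, against 6.32% of all tested genes. Erythrocyte markers had 1 of 2 tested genes called, Hba-a2, which was higher, and summed to 371 to 442 and 375 to 691 TPM, with Hbe1 at 0. The groups overlapped for Hba-a2, with spironolactone replicate 3 at 63.9 CPM and the non-loaded libraries at 54.5 to 65.4 CPM. Microglia markers summed to 197 to 274 and 230 to 246 TPM, with 0 of 13 called. Müller glia markers had 1 of 14 called lower (Dbi), endothelium markers 1 of 9 called higher (Vwf), and lens markers 0 of 3 tested, with Crygc, Crygf, Mip and Lim2 at 0. Among the 9 endothelium markers 5 were below 0, with a median of −0.02. Over all tested genes 0.763% were called lower and 1.87% higher. The part of length, rods and pigment epithelium in the values of the ribosomal protein genes was not tested.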

How the data were processed

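RNA of 6 neuroretina samples was sequenced as stranded mRNA libraries, per the labels' protocols. Per the submitters' processing notes, FastQC, Trimmomatic, STAR 2.5.3a, RSEM 1.2.28 and genome build rn6 were used, with no roles stated. The authors deposited RSEM expected counts per gene (estimated, not normalized) with TPM and gene lengths; the deposited FPKM were not used. Expected counts were rounded. Genes were filtered with filterByExpr, scaled by TMM (factors 0.990 to 1.02) and tested with edgeR 4.0.16 (quasi-likelihood, R 4.3.3), 3 against 3 samples, adjusted by Benjamini-Hochberg over all tested genes at 0.05. Results with DESeq2 1.42.0, limma 3.58.1 and the other alternatives are given in part beside the genes and in part in the closing section. The script was tested on simulated data. Levels between genes are in TPM, per length.

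Members and gene lists were chosen with earlier results of these data known. Named are called members, the 3 largest and smallest log2 fold changes, the 3 most abundant per subunit, stalk genes, paralog pairs, a list of well-studied members, and up to 3 genes per other list by smallest p; others are marked as chosen after their values were seen. A few genes under this rule are not reported here. Start sequences are from RefSeq (GRCr8), a different build from the counts, and were matched by symbol. Lists cover translation genes with TOP mRNAs, ribosome biogenesis, mitochondrial ribosomal proteins, mTORC1 and TOP regulators, respiratory chain, and markers of rods, Müller glia, microglia, endothelium, pigment epithelium, erythrocytes and lens.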

Additional observations from a re-analysis of the deposited data

How the results depend on the processing

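No paired analysis was possible because the sample titles share no replicate numbers between the groups. The title numbers follow the groups, so number and group cannot be told apart: with the number as a covariate 0 genes passed in either direction (edgeR), 0 ribosomal protein genes were called lower, and their median log2 fold change was 0.11 in place of −0.09. Under the other alternatives the median stayed between −0.13 (without spironolactone replicate 1) and −0.06 (without spironolactone replicate 3). With that covariate the log2 fold changes that changed sign were 0.25 for Rps14, 0.36 for Rpl9, −0.034 for Rpl36al, 0.21 for Rps29, −0.095 for Rpl21, 0.12 for Rpl41, 0.0054 for Rpl19, 0.33 for Rplp0, 0.12 for Rplp1, 0.13 for Rpl22, 0.74 for Rpl22l1, 0.16 for Rpl36a, 0.21 for Rpl3, 0.13 for Rpsa, 0.26 for Rps3, 0.40 for Rps27a, −0.13 for Rpl5, 0.27 for Rack1, −0.042 for Ncl, −0.012 for Utp14a, 0.055 for Ndufa4, 0.45 for Rps21, 4.37 for Rps10l1 and 0.77 for Rpl37. Other changes of sign were Rps27 at −0.019 without non-loaded replicate 1 (its highest value with 1 library left out was 0.099), Rpl30 at 0.066 without non-loaded replicate 2 (its lowest was −0.42), and Rps10l1 (lowest −1.21) at 0.13 (limma-voom), 0.17 (log2(TPM + 0.1)), 0.11 and 0.0010 (without non-loaded replicate 1 or 2) and 0.23 (without spironolactone replicate 2). The 2 ribosomal protein genes called lower became 1 with robust shrinkage, 4 with no filter, 1 with effective lengths as an offset, 0 on log2(TPM + 1) and 0 on log2(TPM + 0.1), 20 at an unadjusted p of 0.05 (chosen after seeing the data, which also gave 1 called higher), and 0 to 10 with 1 library left out. The 10 came without spironolactone replicate 1, and 0 when the first non-loaded library or either of spironolactone replicates 2 and 3 was dropped. The count of members called lower stayed at 2 with DESeq2, limma-voom, library totals and upper quartile factors. The number called lower over all tested genes was 200 without spironolactone replicate 1 and 37 without non-loaded replicate 1. It was 30 without spironolactone replicate 2 and 41 without spironolactone replicate 3. Over all genes, the 247 called higher became 439 with no filter, 82 and 79 on log2(TPM + 1) and log2(TPM + 0.1), 416 at an adjusted p of 0.1 and 81 to 421 with 1 library left out; the 101 called lower became 163, 18, 16, 177 and 30 to 200. The causes were not tested. The summed TPM difference of −5.27% ranged from −9.0% to −3.20% with 1 library left out. With 3 samples a group, small shifts of single genes are not resolved.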
